A study of Homo sapiens with 6 samples.

Results

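The genes described here are 10 restraints of JAK-STAT signaling, taken from the table by their symbols: SOCS1, SOCS2, SOCS3, CISH, PTPN1, PTPN2, PTPN6, PTPN11, PIAS1 and PIAS3. They are 10 of the 37887 rows of a table of raw RNA-seq counts, and 9 of them had enough counts to be tested, among 15450 tested genes in all. The cells are BT-549, an established triple-negative breast cancer (TNBC) line, in 2 groups of 3 libraries. The sample titles call them control shRNA (shCTL) and shPBRM1, for the silencing of PBRM1, the bromodomain subunit that targets the PBAF form of the SWI/SNF chromatin remodeling complex. The series design reads differently: it puts a stable tet-PBRM1 shRNA vector in all the cells and gives 0.1% DMSO to the shCTL cells and 500 ng/ml doxycycline to the shPBRM1 cells, as the treatment labels do. These sources conflict, and whether the controls are the same line without induction or a line with a control hairpin is not settled here. Doxycycline and the silencing cannot be told apart under the design text, nor can a difference between transduced lines under the titles. The methods name more than 1 PBRM1 hairpin for the study without saying which these libraries carry, and they give no treatment time or number of clones for them. RNA was taken from triplicate cultures.

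Cytokine and interferon receptors carry Janus kinases (JAK1, JAK2, JAK3 and TYK2), which phosphorylate STAT proteins on tyrosine; the STATs then enter the nucleus and bind DNA. Several families of protein hold this signal back. SOCS proteins and CISH are made in response to the signal and act as a feedback loop: they bind JAKs or receptors through an SH2 domain and, through their SOCS box, recruit a ubiquitin ligase. The PTPN phosphatases remove phosphate from JAKs, STATs and receptors and are mostly present without stimulation, and the PIAS proteins, which are SUMO ligases, act on STATs in the nucleus. PTPN11 (SHP-2) is the member known to act in both directions, since it can dephosphorylate STATs and also carries receptor signals to the RAS-ERK pathway.

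The labels were checked first. PBRM1 (chromosome 3, 52545352 to 52685917, GENCODE v29 annotation of GRCh38) had 158 ± 2.30 CPM (counts scaled to a common library size, with library sizes normalized by TMM; mean ± SD, n = 3) in shCTL and 41.9 ± 1.22 in shPBRM1 (n = 3), a log2 fold change of -1.91 (SE 0.035; adjusted p = 9.98e-23, edgeR). Total counts per library lay between 36429395 and 65096297, so that 3 counts, the floor used here, stand for 0.0461 to 0.0824 CPM before normalization (counting error only). All 7 mesenchymal markers were expressed; VIM, CDH2, AXL and CD44 were higher in shPBRM1 (log2 fold changes 0.31 to 0.54) and FN1 (-1.33), ZEB1 (-0.55) and SPARC (-0.37) were lower. Of the 8 epithelial and luminal markers, ESR1, PGR, GATA3 and EPCAM were at or near 0, KRT8 (3.08) and KRT18 (3.51) were higher, CDH1 (-1.73) was lower and ERBB2 (-0.035) did not pass. The 9 leukocyte markers summed to 3.29 to 3.80 CPM in shCTL and 2.87 to 3.40 in shPBRM1, of which CORO1A made up 2.20 and 2.21 on average; 3 were tested, with PTPRC lower (0.797 to 0.132 CPM), CD14 higher (0.331 to 0.678 CPM) and CORO1A not past the test, and the defining markers CD3E and SPI1 were at or near 0. In bulk libraries, a change in every cell and a change in some of the cells cannot be told apart.

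Of the 9 tested restraints, 5 were measured near their control level in shPBRM1, by the 95% intervals given below. PTPN11 rose 1.60-fold, PTPN1 fell to 0.669 of its shCTL level, and the other 7 tested genes did not pass the test (adjusted p under 0.05, edgeR quasi-likelihood test, p-values adjusted over all tested genes by Benjamini-Hochberg). Both genes that changed encode phosphatases. In the whole table, 64.7% of tested genes passed in either direction, 31.5% higher and 33.2% lower, beside 2 of these 9, 1 higher and 1 lower. No overlap of CPM between the groups was seen for 68.3% of all tested genes and for the same 2 of the 9. Of all tested genes, 12.6% passed with a fold change over 2, and of the 9 none did. The median log2 fold change was -0.040 over the 9 genes and -0.0080 over all tested genes, and the median size of the change, whatever its direction, was 0.075 and 0.35. Among the 7 that did not pass, the 95% interval lay within a 1.5-fold change in either direction for 5: SOCS2, SOCS3, PTPN2, PIAS1 and PIAS3. The intervals of SOCS1 and CISH, which had 18 to 46 counts per library, were wider.

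**Figure D1:**
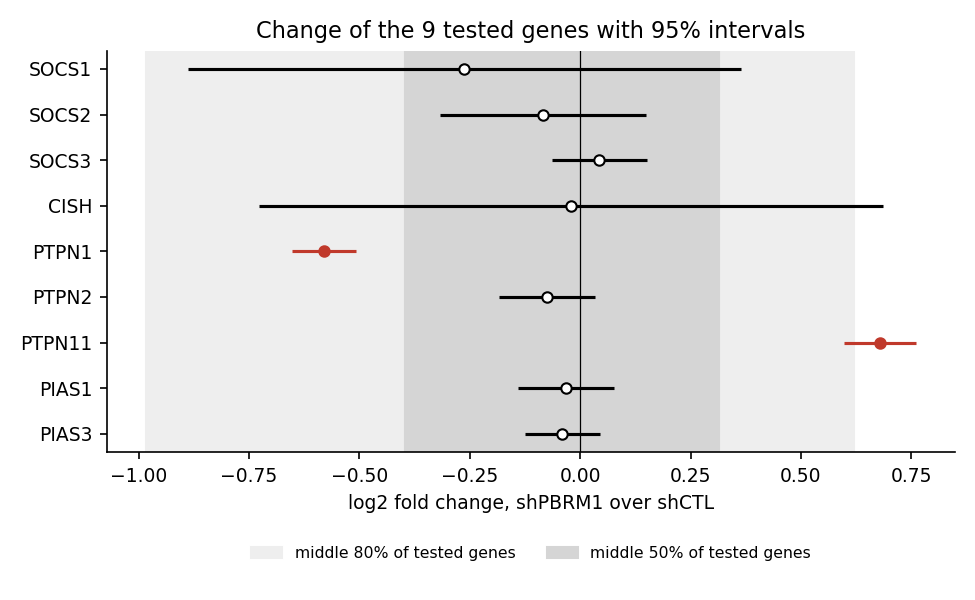
Log2 fold change (shPBRM1 over shCTL, horizontal axis) of the 9 tested genes, with 95% intervals from edgeR; filled red points passed the test (adjusted p under 0.05) and open points did not. The grey bands hold the middle 50% (log2 fold change -0.40 to 0.31) and the middle 80% (-0.98 to 0.62) of all tested genes. PTPN11 lies at 0.68 and PTPN1 at -0.58, and the intervals of the other 7 cross 0.

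The phosphatases included the most and the least abundant of these genes per kb of exon. PTPN11 encodes SHP-2, a phosphatase with SH2 domains (chromosome 12, 112418351 to 112509913, plus strand). Its counts were 11251, 14367 and 15305 in shCTL, in replicate order, against 29281, 18194 and 31010 in shPBRM1. In CPM these were 301, 296 and 303 against 488, 468 and 487. The groups did not overlap, and the gap between them was many times the spread within either. The means were 300.2 ± 4.12 and 481 ± 11.4 CPM (SD, n = 3 each), with a log2 fold change of 0.68 (SE 0.039, 95% interval 0.60 to 0.76, adjusted p = 4.84e-13, edgeR). Among all tested genes, 23.5% had a larger change in either direction. Between libraries with the same replicate number, the log2 ratios of PTPN11 were 0.69, 0.66 and 0.68.

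PTPN11 overlaps RPL6, a ribosomal protein gene on the opposite strand whose start lies 0.487 kb away, and the annotated exons of the pair share 111 of the 7023 exon bases of PTPN11 (1.58%). RPL6 was also higher in shPBRM1, with 516 ± 23.1 CPM in shCTL and 746 ± 30.05 in shPBRM1 (n = 3 each; log2 fold change 0.53, adjusted p = 1.48e-10, edgeR). The library kit keeps the strand, but whether the counting used it is not given in the sources used here, and the part of RPL6 reads in the PTPN11 value was not tested. Genes with a start within 500 kb of that of PTPN11 were looked at after the PTPN11 values were seen. Over all tested genes, 31.5% were higher and 33.2% lower. Of the 9 tested genes in that region, 2 were higher, 3 were lower and 4 did not pass. The rises were RPL6 and RN7SKP71 (log2 fold change 0.27). The falls were HECTD4 (-0.33), TRAFD1, an inhibitor of innate immune signaling (-0.68), and OAS1, an interferon-induced antiviral enzyme at the far end of the region, which went from 210 CPM in shCTL to 0.109 in shPBRM1.

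PTPN1 encodes PTP1B, a phosphatase of the endoplasmic reticulum surface that acts on JAK2, TYK2 and the insulin receptor (chromosome 20, 50510321 to 50585241, plus strand). Its counts were 4302, 5912 and 6097 in shCTL and 4647, 3190 and 5110 in shPBRM1, or 115, 122 and 121 CPM against 77.4, 82.0 and 80.2. Every shPBRM1 library was below every shCTL library. The mean went from 119 ± 3.48 to 79.9 ± 2.30 CPM (SD, n = 3 each), a log2 fold change of -0.58 (SE 0.035, 95% interval -0.65 to -0.51, adjusted p = 7.75e-13, edgeR), and 29.4% of all tested genes changed by more. The log2 ratios by replicate number were -0.57, -0.57 and -0.59.

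PTPN2 (TC-PTP), the nearest relative of PTPN1 in sequence, dephosphorylates JAK1 and JAK3. It had 35.8, 34.0 and 33.2 CPM in shCTL and 31.9, 32.6 and 33.2 in shPBRM1, so that the groups overlapped at their edges. Its log2 fold change was -0.075 (95% interval -0.18 to 0.034, adjusted p = 0.219, edgeR). In this fit the interval runs from a 12.0% fall to a 2.39% rise. With library size only, the log2 fold change of PTPN2 was -0.12 (adjusted p = 0.0505, edgeR). Reads of PTPN2 can be shared with its processed pseudogenes: PTPN2P1 was listed with 4 to 12 counts per library and PTPN2P2 with 0 to 3.

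PTPN6 (SHP-1), the hematopoietic relative of PTPN11, had 2, 1 and 5 counts in shCTL and 0, 2 and 4 in shPBRM1. The means of both groups were at or under the floor of 3 counts, so it was not tested and no fold is given. A difference in PTPN6 was not detectable at this depth.

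**Figure D2:**
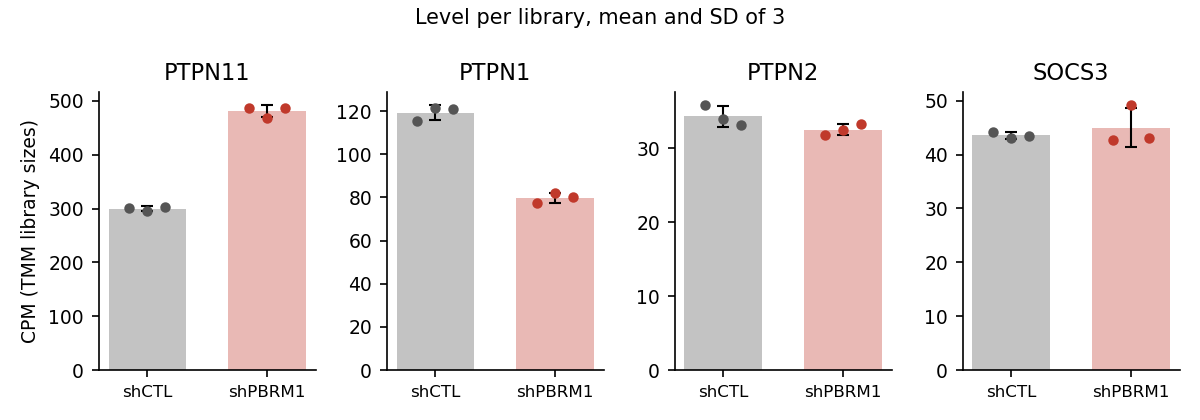
CPM on TMM library sizes (vertical axis, from 0) of PTPN11, PTPN1, PTPN2 and SOCS3 in each library; points are libraries, bars are group means and whiskers are SD (n = 3). The PTPN11 points rise from between 296 and 303 CPM in shCTL to between 468 and 488 in shPBRM1, the PTPN1 points fall from between 115 and 122 to between 77.4 and 82.0, and the groups overlap for PTPN2 and SOCS3.

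The SOCS box proteins are the feedback arm. SOCS3, which binds the shared IL-6 receptor subunit gp130 and inhibits its JAKs, was the most abundant of the 4 described here (chromosome 17, 78356778 to 78360077). Its levels were 44.2, 43.0 and 43.5 CPM in shCTL and 42.8, 49.2 and 43.1 in shPBRM1. shPBRM1 replicate 2 was above all the others, and the remaining libraries overlapped. The log2 fold change was 0.043 (95% interval -0.064 to 0.15, adjusted p = 0.483, edgeR); its sign turned to -0.015 without shPBRM1 replicate 2. IL6ST, which encodes gp130 (named after its value was seen), fell from 703 ± 19.9 to 459 ± 6.93 CPM (n = 3 each; log2 fold change -0.62, adjusted p = 2.09e-12, edgeR).

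SOCS2, a regulator of growth hormone receptor signaling, had 5.14, 5.92 and 4.84 CPM in shCTL and 5.38, 4.96 and 4.68 in shPBRM1. The groups overlapped (log2 fold change -0.084, 95% interval -0.32 to 0.15, adjusted p = 0.530, edgeR). Its antisense gene SOCS2-AS1, with which it shares 277 exon bases, had 21 to 40 counts per library (log2 fold change -0.50, adjusted p = 0.209, edgeR).

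SOCS1, a direct inhibitor of JAK1, JAK2 and TYK2 and a feedback gene of interferon signaling, was near the lower end of what these libraries measure. It had 22, 40 and 36 counts in shCTL and 28, 23 and 46 in shPBRM1, which is 0.589, 0.823 and 0.714 CPM against 0.466, 0.591 and 0.722. The log2 fold change was -0.26 (95% interval -0.89 to 0.36, adjusted p = 0.461, edgeR). That interval runs from a 46.0% fall to a 28.7% rise. CISH, an early target of STAT5 that acts on cytokine receptors, had 31, 32 and 18 counts against 30, 27 and 39, with a log2 fold change of -0.020 (95% interval -0.73 to 0.69, adjusted p = 0.963, edgeR). The lowest CISH library was shCTL replicate 3. Both lie beside genes on the opposite strand that were higher in shPBRM1: SOCS1 shares 0 exon bases with RMI2 (log2 fold change 0.24, adjusted p = 0.00298, edgeR), and CISH shares 218 with MAPKAPK3 (0.31, adjusted p = 0.000187, edgeR).

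STATs bind a palindromic element, TTCNNNGAA, known as GAS, and the interferon response element holds a repeat searched here as GAAA, any 2 bases and GAAA again (ISRE core). RefSeq promoter windows, which run from 250 bases before to 50 bases after a gene's start (GRCh38.p14), were found for 8 of the 10 genes (11 windows in all) and searched on both strands. The PTPN2 window starts 88.7 kb from the GENCODE start of the gene and inside it. The start sites of the SOCS3 windows lie 0.848 and 0.41 kb from the GENCODE start, and that of the PIAS3 window 0.755 kb. None of these windows spans the GENCODE start of its gene, so the annotated starts of PTPN2, SOCS3 and PIAS3 were not searched. CISH and SOCS1 are shown because theirs were the windows among these 11 that hold a match, and because both are known feedback targets of the pathway. The CISH window (chr3:50611725-50612024, minus strand) holds 4 GAS matches, whose first bases lie at -241, -230, -129 and -112 from the start. The SOCS1 window (chr16:11256155-11256454, minus strand) holds 1 ISRE core match at -113. Capitals mark the matches, which do not overlap each other, and both sequences are written 5′ to 3′ on the strand of the gene.
CISH: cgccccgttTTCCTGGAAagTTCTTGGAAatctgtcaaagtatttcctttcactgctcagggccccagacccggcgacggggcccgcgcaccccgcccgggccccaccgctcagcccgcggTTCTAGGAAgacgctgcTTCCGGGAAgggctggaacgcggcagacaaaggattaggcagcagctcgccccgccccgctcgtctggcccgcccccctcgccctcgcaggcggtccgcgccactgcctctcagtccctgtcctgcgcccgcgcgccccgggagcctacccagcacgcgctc
SOCS1: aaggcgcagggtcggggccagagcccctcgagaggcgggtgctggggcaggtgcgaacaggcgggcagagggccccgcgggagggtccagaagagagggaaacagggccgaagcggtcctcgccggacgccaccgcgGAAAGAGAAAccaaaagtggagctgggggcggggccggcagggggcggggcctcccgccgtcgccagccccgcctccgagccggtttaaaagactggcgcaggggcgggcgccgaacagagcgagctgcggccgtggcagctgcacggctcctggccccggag
A GAS match was present in 7.66% of all 35116 promoter windows and an ISRE core match in 3.57%. A GAS spacing with 4 middle bases, the form preferred by STAT6, was in 6.44% of all windows and in none of the 11 windows. These are letter matches and not binding sites, and both genes that hold them were among those that did not pass the test.

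PIAS1, a SUMO ligase that acts on STATs, had 31.7, 34.1 and 33.7 CPM in shCTL and 32.3, 33.2 and 32.1 in shPBRM1 (log2 fold change -0.032, 95% interval -0.14 to 0.078, adjusted p = 0.617, edgeR). PIAS3, which acts on STAT3, had 57.6, 56.0 and 55.0 CPM against 55.2, 55.8 and 52.9 (log2 fold change -0.040, 95% interval -0.13 to 0.044, adjusted p = 0.398, edgeR). The groups overlapped for both. Of the annotated exon bases of PIAS1, 30.3% are shared with CALML4 on the opposite strand, which had 3 to 9 counts per library. The remaining genes of the PIAS family, PIAS2 and PIAS4, did pass the test, with log2 fold changes of 0.24 and 0.34 (adjusted p = 6.02e-05 and 1.79e-05, edgeR; named after their values were seen).

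Levels of different genes were compared as CPM per kb of annotated exon. In shCTL the order was PTPN11 (42.7 ± 0.586 CPM per kb; SD, n = 3), PTPN1 (29.5 ± 0.861), SOCS3 (15.9 ± 0.223), PIAS3 (11.7 ± 0.270), PTPN2 (3.94 ± 0.157), PIAS1 (3.08 ± 0.124), SOCS2 (0.783 ± 0.083), SOCS1 (0.395 ± 0.065), CISH (0.120 ± 0.047) and PTPN6 (0.0115 ± 0.0079). The order was the same in shPBRM1, and the libraries of neighbours in the order did not overlap in either group. With the length of the longest transcript in place of all exons, PIAS3 (19.4 CPM per kb in shCTL) passed SOCS3 (15.9). The ratio of PTPN11 to PTPN1 per kb was 1.45 ± 0.053 in shCTL and 3.63, 3.28 and 3.49 (mean 3.47 ± 0.17) in shPBRM1, with no overlap (SD, n = 3 each). That separation follows from the rise of PTPN11 and the fall of PTPN1 given above, so no test of it is given. Of the summed level of the 10 genes per kb, PTPN11 made up 38.9 to 39.8% in shCTL and 53.5 to 56.2% in shPBRM1, and PTPN1 made up 26.4 to 27.8% and 15.5 to 16.3%. PTPN1 over PTPN2, which carries the same fall of PTPN1, went from 7.51 ± 0.50 to 5.29 ± 0.12 (n = 3 each).

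**Figure D3:**
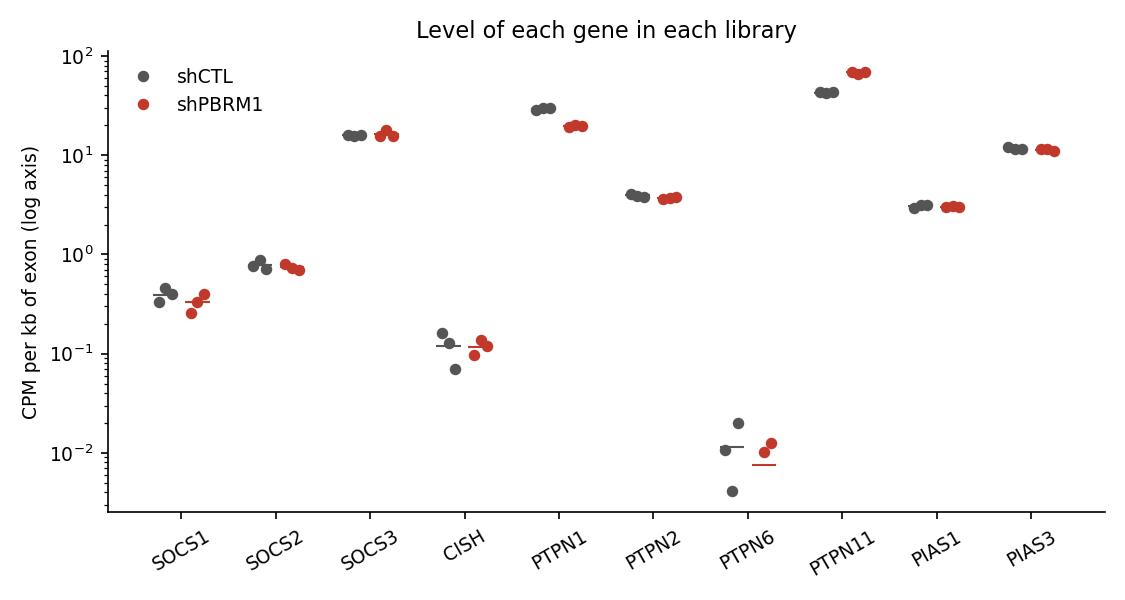
Level of each of the 10 genes in each library as CPM per kb of annotated exon (vertical log axis); grey points are shCTL, red points are shPBRM1, and short lines are the means of 3 libraries. Levels in shCTL span from 0.0115 for PTPN6 to 42.7 for PTPN11; the PTPN6 value of 0 in shPBRM1 replicate 1 cannot be drawn on a log axis.

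The profiles nearest to PTPN11 over the 6 libraries were those of CLCC1, VCL and GFRA1, by the root mean square difference of centred log2 CPM (0.015, 0.016 and 0.019) over 11534 genes whose mean count was 100 or more. For PTPN1 they were MAT2B, POLR3D and LGALS3 (0.013, 0.015 and 0.016). The log2 fold changes of these genes were 0.69, 0.67 and 0.71 beside PTPN11, and -0.59, -0.59 and -0.57 beside PTPN1. Such a match largely reflects a like fold change between the 2 groups, and shared regulation was not tested.

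The kinases and transcription factors that these genes restrain were mostly lower in shPBRM1. Of 10 tested JAK and STAT genes, 8 fell, 1 rose and 1 did not pass, with a median log2 fold change of -0.61. The list also held IRF9 and IRF1, and with them 10 of 12 fell, with a median of -0.84. By comparison, 33.2% of all tested genes fell and 31.5% rose, with a median of -0.0080. STAT2, an effector of type I interferon, went from 130.2 ± 4.44 to 25.4 ± 1.11 CPM (n = 3 each; log2 fold change -2.36, adjusted p = 5.63e-23, edgeR). IRF9, which binds DNA with STAT2, had a log2 fold change of -1.88, and IRF1, a transcription factor induced by interferon, had -1.60. Among the kinases, JAK3 (-2.04), JAK2 (-0.55), JAK1 (-0.29) and TYK2 (-0.21) fell, as did STAT6 (-0.66). JAK3 was at a low level, with 1.55 ± 0.176 CPM in shCTL and 0.375 ± 0.117 in shPBRM1 (n = 3 each). STAT5A (-1.02, adjusted p = 0.0413, edgeR) rested on at most 27 counts per library, and its call was lost when any of 4 libraries (shCTL replicates 1 and 2, shPBRM1 replicates 1 and 2) was left out and with DESeq2. STAT5B rose by a log2 fold change of 0.17. STAT3 had 434 ± 4.83 CPM in shCTL and 413 ± 14.9 in shPBRM1 (n = 3 each; log2 fold change -0.072, adjusted p = 0.127, edgeR); with the replicate number as a block, its adjusted p was 0.0440.

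Genes known as STAT3 and STAT5 targets were mostly lower: of 16 tested, 14 fell and 2 rose, with a median log2 fold change of -0.52. VEGFA, an angiogenic factor, had the largest fall (-1.14), and PIM2, a survival kinase, the largest rise (0.69). SOCS3 and CISH, which are targets of the same STATs, were not part of that list. All tested genes together were 33.2% lower and 31.5% higher, with a median of -0.0080. Of 21 tested genes for chains of receptors that SOCS proteins act on, 11 were higher, 5 were lower and 5 did not pass (median 0.23). Both extremes were alpha chains, which bind the ligand. The interleukin-2 receptor alpha chain IL2RA had the largest rise, from 1.84 to 12.1 CPM (log2 fold change 2.72), and IL15RA the largest fall (-1.62). Whether SOCS proteins act on these 2 chains themselves was not tested.

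Partners and relatives of the restraints are given by family. Each count can be set beside the shares over all tested genes, 31.5% higher and 33.2% lower. Of the 4 other SOCS genes, SOCS5 was lower (log2 fold change -0.16, adjusted p = 0.0221, edgeR), and SOCS4 (-0.0088), SOCS6 (-0.060) and SOCS7 (0.18) did not pass. The SOCS5 call was lost without any 1 of 4 libraries (shCTL replicates 2 and 3, shPBRM1 replicates 1 and 3), with adjusted p-values up to 0.125. SOCS7 passed with the replicate number as a block (adjusted p = 0.0398). A further list held 7 genes of the ubiquitin ligase that the SOCS box recruits and of related cullin ligases. Of these, 6 were higher, 0 were lower and 1 did not pass (median log2 fold change 0.26). RBX1, a RING protein gene of cullin ligases, rose the most (0.46), with 31.9 ± 0.805 CPM in shCTL and 43.9 ± 4.26 in shPBRM1 (n = 3 each). The other RING protein gene of the list, RNF7, had a log2 fold change of 0.31. Which of them serves the SOCS proteins in these cells was not tested.

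Among genes for docking proteins and adaptors of SHP-1 and SHP-2, 3 of 10 tested were higher, 5 were lower and 2 did not pass (median log2 fold change -0.17). The whole table had 31.5% of tested genes higher and 33.2% lower. MPZL1 (PZR), a transmembrane protein that binds SHP-2, had 192, 191 and 187 CPM in shCTL and 412, 400.1 and 408 in shPBRM1. It rose 2.14-fold (log2 fold change 1.10, SE 0.038, adjusted p = 3.08e-17, edgeR), and the groups did not overlap. IRS1, the insulin receptor adaptor, fell from 47.5 ± 0.731 to 25.2 ± 1.30 CPM (n = 3 each; log2 fold change -0.91). Of 9 other non-receptor phosphatase genes tested, 4 were higher, 3 were lower and 2 did not pass (median 0.15), with PTPN14, a phosphatase of the Hippo pathway, at 0.61 and PTPN13, which binds the FAS receptor, at -0.49.

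Other known restraints of JAK-STAT signaling went in both directions. Of 10 tested, 5 were higher, 4 were lower and 1 did not pass (median log2 fold change 0.14). The 4 lower genes include PTPRC, which had at most 44 counts in any library. USP18, an interferon-induced protein that blocks the type I receptor, had 40.4, 41.5 and 42.6 CPM in shCTL and 0.733, 1.13 and 1.18 in shPBRM1. It fell 41.3-fold (log2 fold change -5.37, adjusted p = 3.47e-22, edgeR). PTPRD, a receptor phosphatase that acts on STAT3, rose from 55.7 ± 4.05 to 127 ± 4.54 CPM (n = 3 each; log2 fold change 1.19). In the SUMO machinery that PIAS proteins use, 8 of 16 genes were higher, 2 were lower and 6 did not pass (median 0.11), with SUMO2, a modifier gene, at 0.64. For both lists, the shares over all tested genes were 31.5% higher and 33.2% lower.

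**Figure D4:**
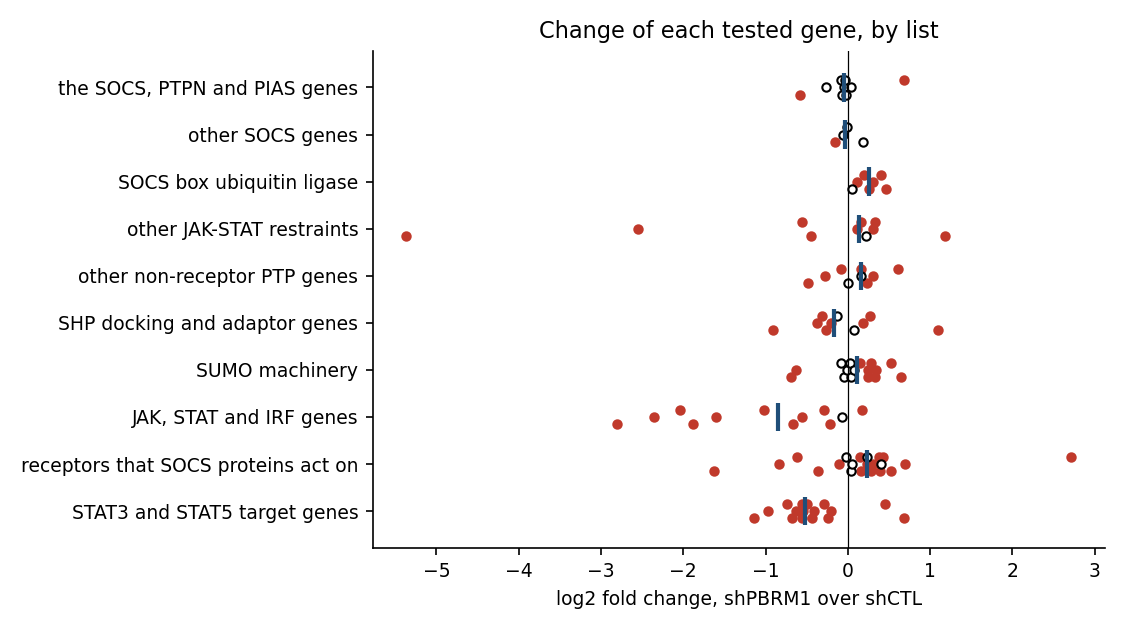
Log2 fold change (shPBRM1 over shCTL, horizontal axis) of each tested gene in the 10 restraints and 9 related lists; filled red points passed the test (adjusted p under 0.05, edgeR), open points did not, and blue bars are list medians (vertical offsets only separate the points). The JAK, STAT and IRF genes (median -0.84) and the STAT3 and STAT5 targets (-0.52) lie mostly left of 0, while the restraints (-0.040) gather around it; the point farthest left is USP18 at -5.37.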

How the data were processed

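RNA-seq libraries were made by the authors with a stranded mRNA kit. Per the submitters' processing notes, the tools included CASAVA 1.8.2, STAR 2.7.9a, featureCounts and DESeq2 1.24.0, with the build GRCh38.p7; the annotation and the strand setting are not given in the sources used here. What the authors deposited is a table of raw, unnormalized counts with 37887 rows of symbols, 14 of them dates. Totals per library were 36429395 to 65096297.

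The sample titles gave the groups and replicate numbers. The control columns carry only the cell line and a number, and were matched to the control titles by elimination and that number. Libraries of a group differed by more than sampling noise (chi-square per degree of freedom 4.92 to 24.9). Same-numbered libraries of the 2 groups deviated together (correlations across 5622 genes of 0.734, 0.593 and 0.419, with different numbers at -0.671 to 0.464). The numbers may therefore pair the samples. However, shCTL replicate 2 with shPBRM1 replicate 3 (0.464) was above the same-numbered pair of replicate 3 (0.419), so pairing is not settled. The main fit was unpaired, and a replicate block was run as an alternative. p-values measure the spread between these triplicate cultures.

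The test was edgeR 4.0.16's (R 4.3.3; TMM, filterByExpr, 15450 genes, quasi-likelihood F-test, Benjamini-Hochberg adjustment, threshold 0.05). The paper's methods use DESeq2, which was run as an alternative (1.42.0). Standard errors were derived from the log2 fold change and F statistic of the fit. The 95% intervals were built from these standard errors and the t distribution. CPM were computed on TMM library sizes, and lengths, positions and overlaps are from GENCODE v29. Only the edgeR fit was tried on simulated counts, with the same dispersion for every gene, a simpler case than these libraries. No result here rests on that trial. Other alternatives were RLE factors, library size only, no filter, a minimum mean of 50 counts, omission of each library, the replicate block, an adjusted p under 0.001, a fold change over 2, and the longest transcript as length.

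The members and lists were chosen with earlier results of these data known. All 10 members are named; from each list, the called genes with the largest rise and fall, every gene of a list of 4 or fewer, and the genes of the JAK, STAT and IRF list that passed; and the 3 nearest profiles of the members with the largest rise and fall. PTPN9, BCL6 and PTPRC each stand in 2 lists, PTPRC as a restraint and as a leukocyte marker. Related pseudogenes and antisense genes are given where they have counts. Genes outside this rule, namely the checks of the labels, overlapping or neighbouring genes, STAT3, and those said to be named after their values were seen, were added. Some genes that the rule names are not reported here.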

Additional observations from a re-analysis of the deposited data

How the results depend on the processing

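PTPN11 and PTPN1 passed the test with the same direction in all 13 fits. The other 7 tested genes passed in none. PTPN11 ranged from 0.67 to 0.70 on the log2 scale with a library left out and from 0.63 to 0.68 otherwise, and PTPN1 from -0.60 to -0.55 and from -0.63 to -0.57. With the replicate block, which pairs libraries by number, PTPN11 was 0.68 and PTPN1 -0.58; the block changed no call among these genes. With a fold change over 2 required, 0 were higher and 0 were lower, and over all tested genes 443 were higher and 1496 lower. Signs of values near 0 were not stable: SOCS3 was -0.0062 with library size only and ranged from -0.015 to 0.083 with a library left out, SOCS2 from -0.15 to 0.0062, and CISH from -0.31 to 0.23 and was 0.021 with the replicate block. SOCS4 ranged from -0.042 to 0.022. The cause was not tested. SOCS1 and CISH had too few counts for the filter of 50. Of 252 recomputed list counts, 31 moved by over 1.5 times, 16 of them where a fold change over 2 was required; the higher count of the other restraints was 3 with library size only or without shPBRM1 replicate 3, and the lower count of the SUMO machinery was 4 with library size only. Of the 27 named list genes that passed, 25 did so in every fit; the others were SOCS5 and STAT5A. STAT3 also passed with library size only (adjusted p = 0.0144, edgeR), and SOCS7 with RLE factors (0.0477) and without shCTL replicate 3 (0.0217) or shPBRM1 replicate 2 (0.0494). Per kb of the longest transcript, shCTL levels were 49.2 for PTPN11, 9.90 for PTPN2, 4.09 for PIAS1, 1.42 for SOCS2 and 0.0239 for PTPN6. Depth limits SOCS1, CISH and PTPN6.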
